A study of Mus musculus with 6 samples.

Results

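The AP-1 transcription factor genes examined here are Fos, Fosb, Fosl1, Fosl2, Jun, Junb, Jund and Atf3, taken by symbol from a list drawn up for the family. All 8 were found among the 25528 genes of each count table, and all 8 had enough counts to be among the 12593 genes tested. RNA was sequenced from cultured mouse organoids of the gastric corpus, the acid-secreting body of the stomach, with 3 libraries named Erbb2_OE_Corpus from organoids engineered to overexpress Erbb2 and 3 named Ctrl_Corpus from organoids that received an empty vector. Erbb2 encodes a receptor tyrosine kinase that signals through the RAS and MAP kinase pathway. Libraries were numbered 1 to 3 in both groups, and the labels do not say what a number stands for, whether libraries came from separate animals, cultures or lines, which promoter drives the construct, or the age of the animals.

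AP-1 is a dimer of basic leucine zipper proteins. Jun proteins can pair with each other or with Fos proteins, while Fos proteins need a Jun partner to bind DNA, and Atf3 joins the same network as a stress-induced member that often represses. Fos, Fosb, Jun, Junb and Atf3 are immediate early genes, transcribed within minutes of a growth factor, serum, stress or mechanical stimulus and then shut off, with short-lived mRNA. Fosl1 and Fosl2, which encode FRA1 and FRA2, are usually induced later and for longer, and Jund is expressed more steadily.

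Erbb2 itself was at 125, 164 and 128 CPM (counts per 1000000 after TMM scaling) in control replicates 1, 2 and 3 and at 342, 349 and 285 CPM in the overexpressing replicates. The groups did not overlap, and the libraries thus went with their labels. The log2 fold change was 1.23 (SE 0.15, adjusted p = 0.64 in the edgeR group fit) and 1.23 with the replicate number as a block (SE 0.088, adjusted p = 3.55e-05 in edgeR). Epithelial markers (6 genes) summed to between 6859 and 8511 CPM in every library. Their sum was higher with Erbb2 in each pair, and 2 of the 6 differed between numbers, against 29% of all tested genes. Cldn18 and Krt19 were higher with Erbb2 in each pair, while Epcam, Cdh1, Krt8 and Krt18 were lower at number 3. Cldn18 was at 307, 318 and 920 CPM in control replicates 1, 2 and 3 and at 702, 752 and 1168 CPM with Erbb2. Of 9 corpus markers, Atp4b, a parietal cell subunit of the proton pump, had 0 counts throughout, and its partner Atp4a reached at most 5.41 CPM, while the mucous cell genes Tff1 and Tff2 and the chief cell gene Pgc reached 187, 175 and 97.3 CPM. The corpus list summed to 157, 271 and 201 CPM in control replicates 1, 2 and 3. With Erbb2 it summed to 233, 427 and 285 CPM, higher in each pair. Of its 7 tested markers 1 was called in the blocked fit and 0 in the group fit, against 3.09% and 0% of all tested genes. Not every marker was higher with Erbb2. Tff1 and Tff2 were higher with Erbb2 in each pair, while Pgc and the intrinsic factor gene Cblif were lower at numbers 2 and 3. Pgc was at 53.2, 97.3 and 87.6 CPM in the controls and 59.1, 52.0 and 69.8 CPM with Erbb2. The part of these marker differences in the Erbb2 comparison of the AP-1 genes was not tested. Of 7 fibroblast markers, 4 were at 0 in all libraries (Col1a2, Dcn, Lum and Pdgfrb) and the list summed to at most 1.70 CPM. The list of 5 endothelial markers (Emcn at 0) summed to at most 9.28 CPM, of which Tek made up 8.95 CPM in Erbb2 replicate 3 (215 counts), and reached at most 0.845 CPM in the other libraries.

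Most AP-1 genes differed between replicate numbers, while no difference with the Erbb2 construct passed the test. Of the 8 genes, 7 differed between replicate numbers (edgeR quasi-likelihood F test of the number in a fit with group and number, adjusted p under 0.05 over all genes), against 29% of all tested genes. Between the overexpressing and the control organoids 0 of the 8 passed in the group fit, where 0% of all tested genes did. With the replicate number as a block 0 of the 8 passed as well, against 3.09% of all tested genes. Both libraries of number 3 lay below the other 4 for 6 genes, namely Fos, Fosb, Jun, Junb, Jund and Atf3, which 20.1% of tested genes did. For Fosl1 both lay above, as for 18.8% of tested genes. The highest library exceeded the lowest at least 2-fold for 6 of the 8, against 28% of tested genes, with a median ratio of 3.59 over the 8 and 1.52 over all tested genes. The test of the number called 7 of the 8 under RLE scaling (28.6% of tested genes), without a filter on low counts (20.4%), without number 1 (29.4%) and without number 3 (16.4%), and 5 without number 2 (14.5%). The list was drawn up with this variation already known, so these counts describe it and are no separate evidence.

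**Figure D1:**
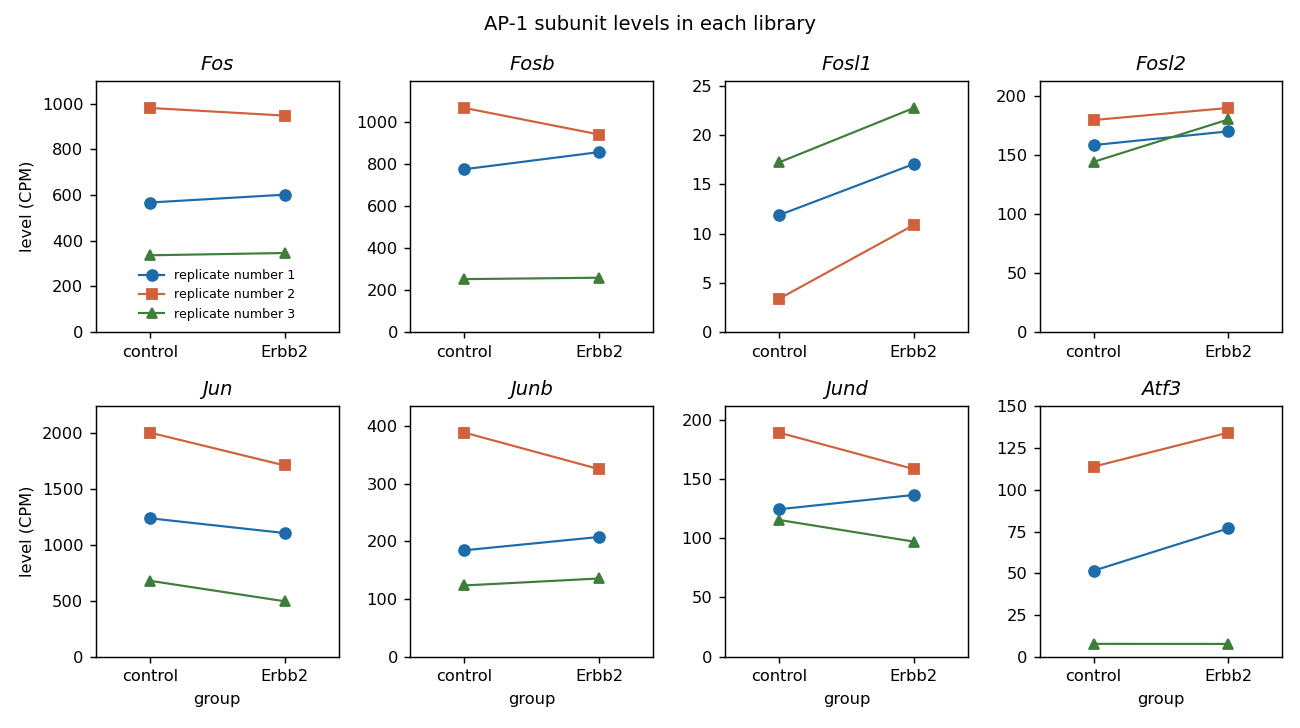
Level of each AP-1 gene (CPM, y axis from 0) in the control and Erbb2 libraries; each line joins the 2 libraries of 1 replicate number. The lines stay apart by number for Fos, Jun, Junb and Atf3, with number 2 at the top and number 3 at the bottom, while Fosl1 has the opposite order.

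Among the Fos proteins, Fos was at 568, 982 and 337 CPM in control replicates 1, 2 and 3 and at 602, 948 and 347 CPM in the overexpressing ones. Number 2 was high and number 3 low in both groups, with each pair close together, and the groups overlapped fully (F = 132, adjusted p = 1.65e-06 for the number in edgeR). The mean of the libraries of number 2 was 2.83 times that of number 3. Fosb, a close relative of Fos, was at 777, 1069 and 253 CPM in the controls and 859, 942 and 260 CPM with Erbb2. Here numbers 1 and 2 lay near each other and number 3 stood far below them (F = 187, adjusted p = 5.66e-07 for the number in edgeR).

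Fosl1 had the lowest mean level per length of the 8, although Atf3 was lower in both libraries of number 3, at 11.9 and 12.6 TPM against 27.9 and 39.3 TPM. On the CPM scale Fosl1 was at 11.9, 3.38 and 17.2 CPM in control replicates 1, 2 and 3 and at 17.1, 10.9 and 22.7 CPM in the overexpressing ones, from between 60 and 546 counts. Number 2 was lowest and number 3 highest in each group, the reverse of Fos (F = 17.9, adjusted p = 0.00342 for the number in edgeR). That call was lost without number 2 (adjusted p = 0.0769). Fosl2 was nearly flat, at 159, 180 and 144 CPM in the controls and 170, 190 and 180 CPM with Erbb2, and was the single gene of the 8 whose number term did not pass (F = 2.33, adjusted p = 0.251 in edgeR). Its highest library was 1.32 times its lowest.

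Among the Jun proteins, Jun was the most abundant per length, and on the CPM scale it was at 1236, 2000.2 and 678 CPM in control replicates 1, 2 and 3 and 1104, 1707 and 495 CPM in the overexpressing ones. Its order over the numbers was that of Fos (F = 132, adjusted p = 1.65e-06 for the number in edgeR). Junb, which can restrain Jun activity, was at 184, 388 and 124 CPM in the controls and 208, 325 and 136 CPM with Erbb2 (F = 85.6, adjusted p = 8.44e-06). Jund had the narrowest range among the Jun genes, at 124, 189 and 115 CPM in the controls and 136, 158 and 97.1 CPM with Erbb2 (F = 20.2, adjusted p = 0.00152). Its call, too, was lost without number 2 (F = 5.35, adjusted p = 0.151 in edgeR).

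Atf3 had the widest range. It was at 51.5, 114 and 7.74 CPM in control replicates 1, 2 and 3 and at 76.9, 134 and 7.70 CPM in the overexpressing ones, from 180 and 185 counts at number 3 to 2371 counts in Erbb2 replicate 2. The highest library was 17.4 times the lowest, and both libraries of number 3 were low to nearly the same degree. Its number term ranked 2 of 12593 tested genes by p (F = 359, adjusted p = 6.92e-08 in edgeR).

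Several library features moved with the number as well. On the first principal component, with 57.8% of the variance, both libraries of number 3 lay at one end. Positions were -20.0, -50.1 and 38.8 in control replicates 1, 2 and 3 and 1.71, -20.6 and 50.1 with Erbb2. The Erbb2 library thus lay nearer that end in each pair, and control replicate 1 lay close to Erbb2 replicate 2. Mitochondrial transcripts made up 10.6% and 11.1% of counts at number 2, 8.14% and 8.01% at number 1 and 8.05% and 6.33% at number 3, controls first. Of 7 immune markers Adgre1 was at 0, and the list summed to 54.1 and 73.9 CPM at number 3 against 18.5 to 36.0 CPM in the other 4 libraries. Nearly all of this was Cd68, a lysosomal protein, at 52.9 and 72.8 CPM, while the pan-leukocyte gene Ptprc was at 0.731 and 0.500 CPM there and at 0.698 to 1.97 CPM elsewhere. The corpus markers did not move one way. Of the 7 tested 3 differed between numbers, against 29% of all tested genes. The sum of the list was highest at number 2 within each group. The intrinsic factor gene Cblif was at 38.2 and 32.1 CPM at number 3 and at most 3.62 CPM elsewhere, whereas Tff2 was at 92.5 and 175 CPM at number 2 and at 39.2 and 59.2 CPM at number 3. The part of these features in the AP-1 differences was not tested, and in bulk RNA fewer cells of a type cannot be told apart from less RNA per cell.

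Promoter sequences are given for Fos, Jun and Atf3, which followed the number closely, and for Fosl2, which did not. They are the 250 bases before the annotated start, 5′ to 3′ on the gene's strand, from RefSeq on build GRCm38.p6, an earlier assembly than the one named for the counts. An entry was found for 7 of the 8 genes, without Fosl1. Capitals mark matches to the motifs searched on both strands.
Fos (chr12:85473640-85473889, plus strand): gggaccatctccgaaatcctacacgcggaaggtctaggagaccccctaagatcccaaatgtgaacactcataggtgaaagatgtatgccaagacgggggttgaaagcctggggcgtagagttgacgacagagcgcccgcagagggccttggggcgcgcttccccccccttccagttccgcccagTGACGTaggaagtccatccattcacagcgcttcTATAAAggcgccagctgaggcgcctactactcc
Jun (chr4:95052223-95052472, minus strand): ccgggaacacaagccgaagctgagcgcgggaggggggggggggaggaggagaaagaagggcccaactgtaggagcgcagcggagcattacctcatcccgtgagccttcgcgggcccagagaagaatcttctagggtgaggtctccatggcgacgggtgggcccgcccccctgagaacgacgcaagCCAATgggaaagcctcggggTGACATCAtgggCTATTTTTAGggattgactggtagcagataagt
Atf3 (chr1:191183334-191183583, minus strand): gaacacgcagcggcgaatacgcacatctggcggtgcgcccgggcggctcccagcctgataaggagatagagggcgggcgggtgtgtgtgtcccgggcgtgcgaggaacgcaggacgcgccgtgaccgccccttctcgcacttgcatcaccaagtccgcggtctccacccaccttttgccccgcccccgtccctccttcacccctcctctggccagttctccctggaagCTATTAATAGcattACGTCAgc
Fosl2 (chr5:32136222-32136471, plus strand): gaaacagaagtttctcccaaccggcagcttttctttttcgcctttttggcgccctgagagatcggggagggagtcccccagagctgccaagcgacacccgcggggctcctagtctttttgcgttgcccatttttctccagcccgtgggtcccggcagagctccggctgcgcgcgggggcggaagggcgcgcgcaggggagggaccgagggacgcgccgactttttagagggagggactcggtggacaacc
The motifs were the AP-1 site TGANTCA, the cAMP response element TGACGTCA and its core TGACGT (which the full element contains), the AP-1-like element TGACATCA, the TATA box as TATAAA, the NF-Y motif as CCAAT, the CArG box of Srf and the MEF2 box. The Fos window holds TGACGT at -66 to -61 from the start and TATAAA at -33 to -28. The Jun window holds CCAAT at -65 to -61, TGACATCA at -45 to -38 and a MEF2 box at -33 to -24. The Atf3 window holds a MEF2 box at -22 to -13 and TGACGT, on the other strand, at -8 to -3. No searched motif is in the Fosl2 window, nor in those of Fosb and Jund, which did differ between numbers, and the Junb window holds CCAAT alone, at -36 to -32. Windows without a searched motif thus occurred both for Fosl2 and for genes that differed between numbers. Whether motifs go with the pattern was not tested, since Fosl2 is the only gene of the 8 whose number term did not pass. Among 32851 promoter windows of the same length, TGACGT is in 6.47%, TGACATCA in 2.93%, the MEF2 box in 0.508%, TATAAA in 12.4%, CCAAT in 33.9%, TGANTCA in 6.75%, TGACGTCA in 1.55% and the CArG box in 1.47%. These matches are a description of the letters and not of factor binding. Sites beyond the 250 bases were not searched for. A window without a match, such as that of Fos for the CArG box, thus does not show that the gene lacks the site.

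Compared per length, on the scale of transcripts per 1000000 (TPM, with merged exon lengths from GENCODE M21), the mean levels in control organoids were 1258 ± 551 TPM for Jun (SD, n = 3), 821 ± 365 TPM for Fos, 344 ± 187 TPM for Fosb, 308 ± 159 TPM for Junb, 266 ± 52.4 TPM for Jund, 80.7 ± 70.1 TPM for Atf3, 52.1 ± 2.50 TPM for Fosl2 and 17.3 ± 11.7 TPM for Fosl1. Neighbours in this order differed by less than the larger of their SDs, apart from Fos and Fosb, Jund and Atf3, and Fosl2 and Fosl1. The SDs are between libraries, over which most of these genes moved together, and are not errors of a difference between genes. Jun was above Fos in every library, while Fosb, Junb and Jund ran in the reverse order in control replicate 3, at 134, 177 and 228 TPM. The order of the means in the overexpressing organoids was the same as in the controls. It began with 1074 ± 499 TPM for Jun and 840 ± 320 TPM for Fos. It ended with 59.9 ± 4.85 TPM for Fosl2 and 27.4 ± 12.0 TPM for Fosl1. All 8 genes together summed to 3123, 4516 and 1801 TPM in control replicates 1, 2 and 3 and to 3206, 4056 and 1738 TPM with Erbb2. The pool at number 3 was thus the smallest in both groups. Jun and its relatives made up 56.8%, 57.9% and 61.4% of this pool in the controls and 53.2%, 54.6% and 55.1% with Erbb2. This summed share was lower with Erbb2 in each pair, and the groups did not overlap. Of the 3 genes only Jun itself fell in each pair, from 40.6%, 39.9% and 38.9% to 35.6%, 37.9% and 31.4%. The share of Junb was higher with Erbb2 at numbers 1 and 3, and that of Jund at number 1. The share of the 4 Fos genes was 40.7%, 38.8% and 37.9% in the controls and 43.1%, 41.0% and 44.2% with Erbb2. These shares carry no test. Atf3 made up 3.36% and 4.41% of the pool at number 2 and 0.658% and 0.723% at number 3.

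**Figure D2:**
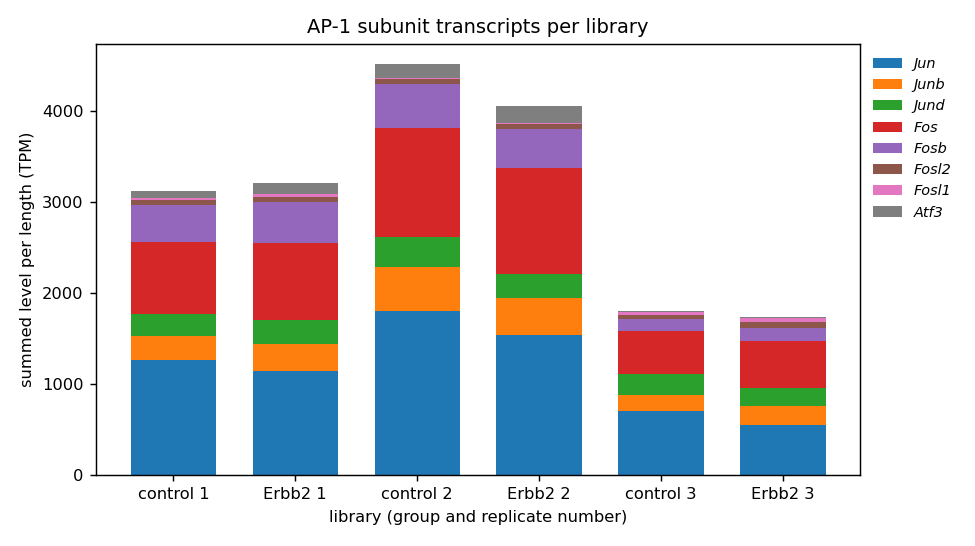
Summed level per length (TPM) of the 8 AP-1 genes in each library, stacked by gene, with the libraries of a number side by side. Jun and Fos make up most of every bar, and the bars run from 1738 TPM in Erbb2 replicate 3 to 4516 TPM in control replicate 2.

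For the comparison the study was designed for, overexpressing against control organoids, the group fit in edgeR called 0 of the 8 genes, and 0% of all 12593 tested genes (adjusted p under 0.05), also 0 of the 8 with DESeq2, which called 34 genes, or 0.27%. At an unadjusted p under 0.05 the group fit had 0 of the 8 and 3.33% of all genes. The groups overlapped for all 8, while 8.75% of tested genes had groups that did not. Log2 fold changes in the group fit lay between -0.24 (SE 0.52) for Jun and 0.63 (SE 0.54) for Fosl1, with a median of -0.0092 over the 8 and -0.0099 over all tested genes. The spread between numbers made these estimates wide, from -1.11 to 1.13 for Fos and from -2.27 to 2.95 for Atf3 (95% intervals on the log2 scale).

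The fit blocked on the replicate number called 389 genes or 3.09% (2.37% higher and 0.723% lower), and again 0 of the 8, although intervals were far narrower. The log2 fold change of Fos was 0.025 with a 95% interval of -0.14 to 0.19, that of Fosb -0.00025 with -0.18 to 0.18, and that of Junb 0.014 with -0.19 to 0.21. These intervals bound a difference shared by the 3 pairs and do not show that the genes were equal. Jund stood at -0.12 (-0.32 to 0.075) and Fosl2 at 0.17 (-0.0068 to 0.34). Of the 8 genes, 3 had an unadjusted p under 0.05, against 16.9% of all tested genes. Jun was lower with Erbb2 in 3 of 3 pairs, by log2 differences of -0.16, -0.23 and -0.45 for numbers 1, 2 and 3, and its blocked value was -0.28 (-0.46 to -0.10, adjusted p = 0.0954 in edgeR). Fosl1 was higher in 3 of 3 pairs, by 0.52, 1.69 and 0.40, with a blocked value of 0.70 (0.26 to 1.14, adjusted p = 0.1 in edgeR). Its largest difference came at number 2, where the control library had 60 counts. Atf3 was higher at numbers 1 and 2, by 0.58 and 0.24, and level at number 3 (-0.0079), with a blocked value of 0.32 (0.084 to 0.56, adjusted p = 0.152 in edgeR). Fosl2 was also higher in 3 of 3 pairs, by 0.10, 0.080 and 0.32. The same direction in all pairs was seen for 3 of the 8 genes and for 38.7% of tested genes.

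Without the libraries of number 3, the blocked fit called 2 of the 8 genes as higher with Erbb2, against 6.15% of tested genes called higher, 2.56% lower and 8.71% in all. These were Fosl1, with a log2 fold change of 0.93 (adjusted p = 0.000644 in edgeR), and Atf3, with 0.41 (adjusted p = 0.00116). Neither was called with all libraries or without number 1 or 2, where Fosl1 stood at 0.87 and 0.47 and Atf3 at 0.14 and 0.36 (adjusted p = 0.242, 0.291, 0.71 and 0.463); these fits called 0 of the 8 and 1.69% and 1.14% of tested genes. Leaving out single libraries from the group fit also called 0 of the 8, with at most 0.00785% of tested genes called, without control replicate 3. Whether the difference itself varies between the numbers was not tested, since each number has 1 library per group.

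**Figure D3:**
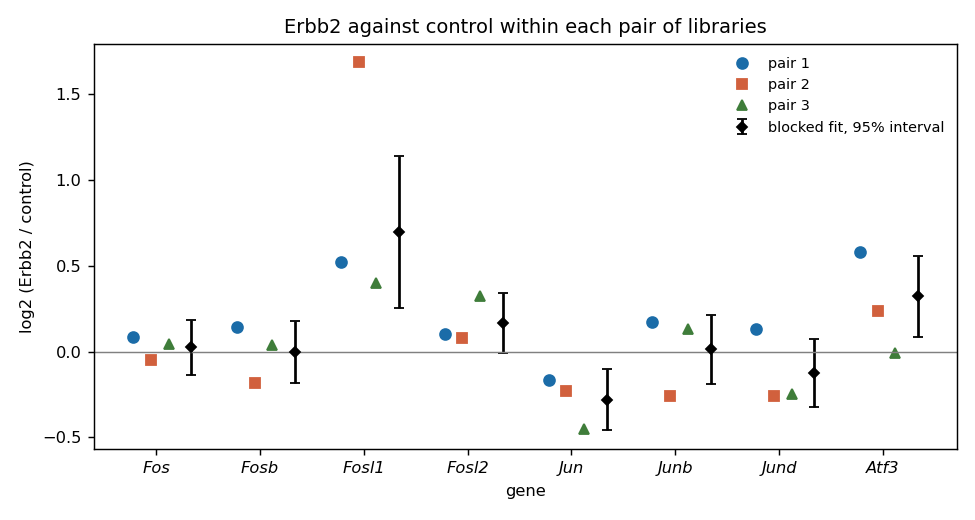
Log2 ratio of the Erbb2 to the control library in each of the 3 pairs, by gene, with the blocked edgeR estimate and its 95% interval (black). Points for Fos lie near 0, those for Jun all lie below 0, and the pair of number 2 for Fosl1 stands apart at 1.69.

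**Figure D4:**
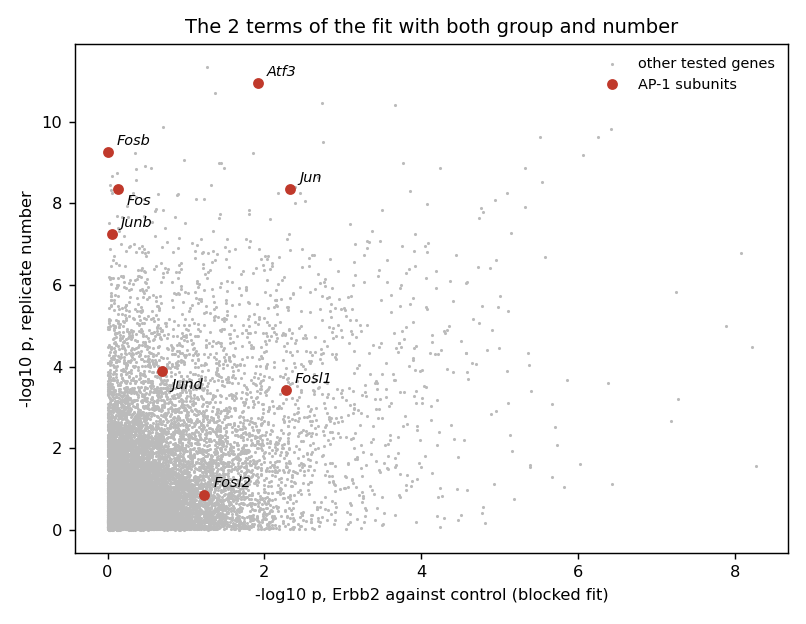
For each tested gene, -log10 of the unadjusted p for Erbb2 against control (x axis) and for the replicate number (y axis) in the fit with both terms; AP-1 genes in red. Atf3, Fosb, Fos, Jun and Junb sit high on the number axis, and Fosl2 is low on it.

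Of 17 further basic leucine zipper partners 10 were tested, 0 differed with Erbb2 in either fit and 4 (40%) differed between numbers; over all tested genes the blocked fit called 3.09% and the number 29%. Jdp2, a repressor that pairs with Jun, was at 67.1, 71.1 and 44.7 CPM in control replicates 1, 2 and 3 and 59.2, 50.8 and 38.9 CPM with Erbb2, lower in 3 of 3 pairs (blocked log2 fold change -0.29, adjusted p = 0.138 in edgeR). Maff, a small Maf protein, had a log2 fold change of 0.24 in the group fit and groups that did not overlap. The groups did not overlap for 8.75% of all tested genes. Genes named for a small p in the group fit, as Maff was, are the likelier to be among them. Ddit3, a stress factor, had 0.29, and both missed the threshold. Of 21 kinases and serum response factors upstream of AP-1, 20 were tested, 0 differed with Erbb2 in either fit (3.09% of all tested genes in the blocked fit) and 7 (35%) between numbers, near the 29% of all tested genes. Srf, the serum response factor that drives Fos transcription, was at 51.7, 64.0 and 53.5 CPM in the controls and 43.1, 46.8 and 45.6 CPM with Erbb2. Its groups did not overlap, as for 8.75% of all tested genes. Its blocked log2 fold change was -0.31 (SE 0.091, adjusted p = 0.0958 in edgeR), short of the threshold. Map2k2 and Map3k1, kinases of the MAP kinase cascades, stood at 0.17 and 0.15 in the group fit. Of 8 genes for the turnover of AP-1 mRNA and protein, 0 differed with Erbb2 in either fit and 4 (50%) between numbers, against 3.09% in the blocked fit and 29% by number over all tested genes. Fbxw7, Cop1 and Det1, parts of ubiquitin ligases that act on Jun, stood at 0.12, -0.20 and 0.28 in the group fit. Zfp36, an mRNA decay factor for such transcripts, was chosen after its values were seen: its mean over the libraries of a number was 326, 765 and 159 CPM for numbers 1, 2 and 3, the order of Fos (adjusted p = 0.000153 for the number in edgeR).

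Of 24 reported AP-1 target genes 18 were tested. In the group fit 0 were called, and in the blocked fit 3 rose and 0 fell, against 2.37% of all tested genes higher and 0.723% lower. The median log2 fold change of the list was 0.34 in the group fit against -0.0099 over all tested genes. This and the other gene lists were drawn up with earlier results of these data known, so their counts and medians describe them and are no separate evidence. The 3 were Sprr1a and Ivl, which encode cornified envelope proteins, with blocked log2 fold changes of 1.02 and 1.19 (adjusted p = 3.55e-05 and 0.0189 in edgeR), and the cyclin gene Ccnd1, with 0.49 (adjusted p = 0.0135). Lor, another cornified envelope gene, was at 0.731 to 0.901 CPM in the controls and 0.963 to 1.70 CPM with Erbb2 and was not called. Between numbers 11 of the 18 (61.1%) differed, against 29% of all tested genes. In these 18 genes 0 had both libraries of number 3 below the other 4 and 7 had both above, against 20.1% and 18.8% of all tested genes.

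The list of 22 other early response and handling stress genes included 19 that differed between numbers, or 86.4% against 29% of all tested genes. Both libraries of number 3 lay below the other 4 for 15 of the 22 and above them for 3, against 20.1% and 18.8% of all tested genes. Egr1, Egr2, Dusp1 and Ccn2 were chosen after their values were seen. Egr1, a zinc finger factor induced together with Fos, had means of 1443, 2186 and 727 CPM for numbers 1, 2 and 3, and Egr2 had 45.5, 92.9 and 6.31 CPM. Dusp1, a phosphatase that ends MAP kinase signals, had 146, 257 and 69.0 CPM. Myc and Ccn2 ran the other way, at 199, 132 and 371 CPM and at 1060, 647 and 1652 CPM. With Erbb2, 2 of the 22 rose in the blocked fit, against 2.37% of all tested genes, and 0 in the group fit, against 0%. These were Ier3, with a log2 fold change of 0.76, and Myc, with 0.42 (adjusted p = 0.00125 and 0.0124 in edgeR with the block). Btg1, an antiproliferative gene, had groups that did not overlap, as for 8.75% of all tested genes, and a log2 fold change of 0.22. The heat shock gene Hspa1a had -0.67 in the group fit, and neither was called. Hspa1a has a near-identical copy that can share its reads.

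**Figure D5:**
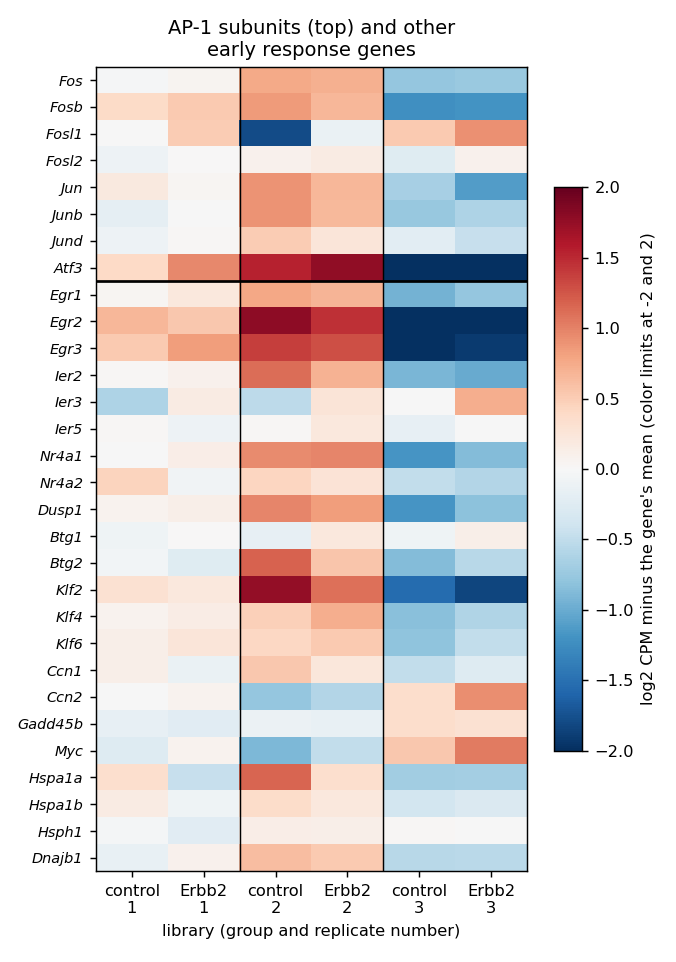
Log2 CPM minus the gene's mean over the 6 libraries (color), for the 8 AP-1 genes above the line and 22 other early response genes below it, with libraries grouped by replicate number. Fos, Jun, Atf3, Egr1 to Egr3 and Dusp1 are red at number 2 and blue at number 3, while Fosl1, Ccn2 and Myc are blue at number 2 and red at number 3.

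The genes nearest to Fos, Jun and Fosl1 in pattern were found among 9363 tested genes whose mean log2 CPM was 3 or more, by the root mean square difference of mean-centred log2 CPM over the 6 libraries. Nearest to Fos were Rnase4, Mcf2l and Atp2c2, at 0.079, 0.088 and 0.088. Rnase4 was at 27.8, 45.1 and 15.1 CPM in control replicates 1, 2 and 3 and 25.4, 41.6 and 17.0 CPM with Erbb2. Among the AP-1 genes the smallest difference from Fos was that of Junb, at 0.10, followed by Jun at 0.20, and the largest was that of Fosl1, at 1.41. Nearest to Jun were Sult1c2, Smim6 and Gpr35, at 0.10, 0.13 and 0.13. Nearest to Fosl1 were Ets1, Entpd3 and Samd5, at 0.11, 0.15 and 0.17. Ets1, a transcription factor gene, was at 10.8, 3.32 and 14.2 CPM in the controls and 17.5, 10.9 and 21.7 CPM with Erbb2. Like Fosl1, it was lowest at number 2 and higher with Erbb2 in 3 of 3 pairs. That likeness follows from the choice of the gene by its pattern and is no separate evidence. These likenesses are over 6 libraries that fall into 3 pairs.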

How the data were processed

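The authors deposited raw read counts per Ensembl gene, 1 table for each of 6 libraries of polyadenylated RNA, in a column of matched counts per the file headers. The submitters' processing notes list STAR, featureCounts and GRCm39, with no versions. No strand setting or annotation is given in the sources used here, and reads from antisense genes may therefore be included. Totals ran from 18735853 to 22767455 counts. No tables were identical. Symbols, by Ensembl ID, matched 25424 of 25528 genes; the 104 others held at most 0.219% of counts.

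Tests used edgeR 4.0.16 (R 4.3.3) with filterByExpr (minimum count 10), TMM scaling (trimmed mean of M values) and the quasi-likelihood F test, robust, with legacy off, and Benjamini-Hochberg adjustment over all tested genes at 0.05. The group fit had no covariate. The test of the replicate number used the fit with group and number. Standard errors were taken as log2 fold change over root F, and 95% intervals use the moderated degrees of freedom. The fits were tested on simulated data with differences between numbers in far fewer genes than here. That test therefore does not show how the group fit performs on these data. P-values measure the spread between these libraries, which may be technical.

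Same-numbered libraries deviated together from their group's mean log2 CPM (Pearson's r over tested genes of 0.333, 0.660 and 0.707 for numbers 1, 2 and 3), so the numbers were treated as pairs; the labels give only the numbers. Alternatives were RLE scaling, DESeq2 1.42.0, no filter, the replicate block, and each library or pair left out; alternatives for the other gene lists and another gene length were chosen after seeing the data. Genes named are the 8 members, Erbb2, from each list those called in either fit and the 3 with the smallest p in the group fit, and the 3 nearest in pattern to Fos, Jun and Fosl1; Zfp36, Egr1, Egr2, Dusp1 and Ccn2 and single cell type markers were added after their values were seen. Members and lists were chosen with earlier results of these data known.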

Additional observations from a re-analysis of the deposited data

How the results depend on the processing

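The calls of the 8 AP-1 genes between groups numbered 0 under RLE scaling, DESeq2, no filter on low counts, the replicate block or each library left out; with the block and a pair left out they numbered 0 to 2. Over all genes, 0 were called in the group fit, 34 by DESeq2, 389 with the replicate block, 0 to 1 with a library left out and 213, 145 and 1089 with the block and without number 1, 2 or 3. With the replicate block, 3 AP-1 targets were called (1 with DESeq2) and 2 early response genes. With a pair left out as well, the calls were 4 to 7 for targets, 1 to 5 for early response genes, 0 to 1 each for leucine zipper partners and upstream factors, and 0 to 2 for turnover genes. In the test of the number, leaving out a pair gave 1850 to 3708 genes, 5 to 7 of the 8 AP-1 genes, 1 to 3 partners, 2 to 10 upstream factors, 1 to 3 turnover genes, 6 to 11 targets and 16 to 18 early response genes.

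Signs of small differences turned when single libraries were left out without the block. The log2 fold change ranged from -0.41 to 0.48 for Fos, -0.43 to 0.42 for Fosb, -0.71 to 0.20 for Jun, -0.44 to 0.53 for Junb, -0.29 to 0.12 for Jund and -0.45 to 1.30 for Atf3. The extremes came from leaving out replicate 2 of either group, and the lower one for Fosb from control replicate 3; such a fit compares groups that hold different numbers. Fosl1 (0.22 to 1.14) and Fosl2 (0.094 to 0.25) kept their sign. Junb was at 0.014 with the replicate block. With the block and a pair left out, Fos was at -0.0040 without number 1, and Fosb and Junb at 0.10 and 0.16 without number 2. With the longest coding transcript as length, mean control levels were 939.5 TPM for Jun, 684 for Fos, 425 for Fosb and 293 for Junb. Those of Jund, Atf3, Fosl2 and Fosl1 were 198, 65.7, 57.4 and 13.9 TPM. The levels thus depended on the length used, while the order of the genes was the same. Only Jund and Fosl2 moved by more than their SD between the control libraries. Depth limits Fosl1 in control replicate 2 (60 counts) and Atf3 at number 3 (180 and 185 counts).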
